A study of Mus musculus with 4 samples.

Results

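The collagen chain genes of the mouse were followed in mesenchymal stroma cells (MSCs) and CD8+ T cells sorted from *Bcr-Abl*+ tumors. Members were all genes whose symbol is Col, a number, a and a number, found by matching the accession of each spot that is not a control to RefSeq symbols. This gave 44 genes of 22911 named genes on the array, measured by 67 different probes on 85 spots. Collagens are built from alpha chains that wind into triple helices inside the endoplasmic reticulum and assemble outside the cell into fibrils, sheets or filaments. Fibroblasts and related stromal cells are known as the main makers of the fibrillar types, and basement membranes rest on the sheet-forming type IV.

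Tumors grew under the skin of Wt and *Sipa1*-/- recipients, all C57BL/6Ncr and 8 weeks old by the labels, after injection of 15000 GFP+ *Bcr-Abl*+ hematopoietic progenitors per mouse in Matrigel. *Sipa1* encodes a Rap1 GTPase-activating protein, and the labels give the donor cells the same description for both recipient genotypes. On day 12, MSCs were taken as GFP- CD45- Ter119- CD31- cells and CD8+ T cells as GFP- TCRβ+ CD8+ cells. There were 5 mice of each genotype and 1 array for each genotype and cell type, and the labels do not say whether mice were pooled. The MSC gate is defined by what the cells lack, so any other cell that lacks these 4 markers also falls in it.

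Values are log2 spot intensities minus the 75th percentile of the same array, so a level of 0 equals that percentile. Levels of different probes cannot be set against each other, and only differences between arrays for the same gene are read. No difference has a replicate check, so there are no tests, and the number of arrays limits the precision. As a technical measure, the scanner software's own error gave 0.20 to 0.30 for the log2 ratios of the members for MSCs and 0.20 to 0.42 for CD8+ T cells. Over probes printed on 10 spots, the median SD was 0.04 on each array. Neither covers the spread between mice.

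*Sipa1* itself was lower on both arrays labelled *Sipa1*-/-. One probe read 5.03 in Wt and 3.78 in *Sipa1*-/- MSCs, and 5.40 and 3.73 in CD8+ T cells. The other read 3.05 and 1.46 on the MSC arrays and 3.43 and 1.39 on the CD8+ T arrays. All readings were clear of background, and whether the probes lie in the deleted stretch of the gene is not given, which limits what they check. The sorts were read from their defining markers. *Cd8a*, a chain of the CD8 coreceptor, was at 3.46 and 3.57 on the Wt and *Sipa1*-/- CD8+ T arrays against -6.60 and -4.94 on the MSC arrays, with no probe passing in Wt MSCs. *Pdgfrb*, a receptor of mesenchymal cells, was at 1.74 and 3.76 on the MSC arrays and at -2.77 and -1.09 on the CD8+ T arrays. *Ptprc*, which encodes the CD45 used to exclude leukocytes, nevertheless passed on both MSC arrays, at 0.76 in Wt and -0.55 in *Sipa1*-/-. *Pecam1*, which encodes the excluded CD31, was at -1.47 and -2.96 on the MSC arrays. *Cd3e*, a T cell receptor subunit, was at 4.15 and 4.31 on the CD8+ T arrays and also passed on the MSC arrays, at -2.63 and -1.97. *Pdgfra*, a fibroblast receptor, read 3.01 and 4.52 on the MSC arrays but was left out there by its background mark.

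Of the 44 members, 42 passed the quality flags on at least 1 array and 26 on all 4. The arrays of Wt MSCs, *Sipa1*-/- MSCs, Wt CD8+ T cells and *Sipa1*-/- CD8+ T cells measured 35, 39, 31 and 30 members. Of all named genes, 69.2%, 70.2%, 64.4% and 64.9% passed in the same order. *Col10a1*, the chain of hypertrophic cartilage, and *Col25a1*, a transmembrane collagen, passed on none. Comparisons by pair use probes that passed on both arrays of that pair, which left 33 members for MSCs and 29 for CD8+ T cells.

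In MSCs, collagens of nearly every class were higher on the *Sipa1*-/- array, while the type I and type III chains and several others changed by less than 2-fold. At least 2-fold higher levels were found for 20 of 33 measured members and at least 2-fold lower levels for 0, beside 19.3% and 11.3% of all 15298 genes measured. The members had a median log2 ratio of 1.35, against 0.04 over all genes. With normexp background correction the member median was 0.86 and 15 of 33 were at least 2-fold higher, beside 11.9% of all genes. Normexp was run with an offset of 50 added to every signal, which by itself shrinks the ratios of dim spots. A lower normexp ratio of a dim chain, here and below, therefore follows in part from that setting. In a bulk sample, fewer cells of a type and less RNA per cell cannot be told apart. The Wt MSC array carried B-lineage transcripts that the *Sipa1*-/- array had at far lower level, as given below, and every ratio of this comparison has that array as its base.

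**Figure D1:**
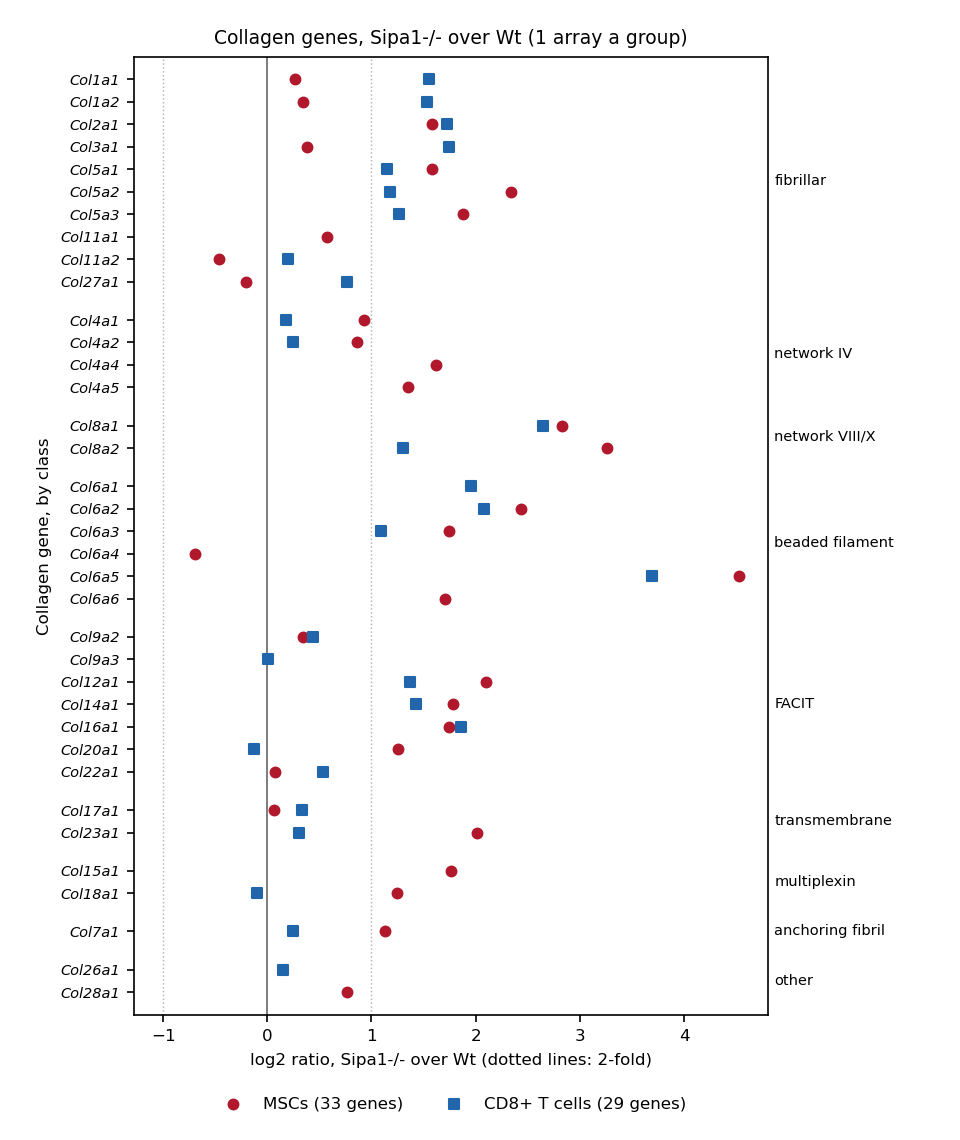
Log2 ratio of *Sipa1*-/- over Wt for each collagen gene measured on both arrays of a cell type, in MSCs (circles, 33 genes) and CD8+ T cells (squares, 29 genes), arranged by class. Each point is a single ratio of 1 array over 1 array and has no error bar. The type I and III chains sit between 0.26 and 0.38 for MSCs and between 1.54 and 1.74 on the CD8+ T side, and *Col6a5* lies far to the right in both.

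The fibrillar class held chains with small ratios in MSCs, chains past 2-fold and a few in between. *Col1a2*, a chain of the type I fibrils of skin, tendon and bone, read 8.56 in Wt MSCs, 8.91 in *Sipa1*-/- MSCs, 4.24 in Wt CD8+ T cells and 5.77 in *Sipa1*-/- CD8+ T cells. Its log2 ratio was thus 0.35 between the MSC arrays and 1.54 between the CD8+ T arrays. Both MSC arrays were high and close together, whereas the CD8+ T arrays were low and apart. *Col3a1*, the chain of type III fibrils found in elastic tissues, showed the same arrangement with 7.32, 7.70, 2.93 and 4.68 in that order. The MSC ratio was 0.38 and the CD8+ T ratio 1.74.

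*Col1a1*, the partner of *Col1a2* in the type I helix, has 2 probes with 10 spots each, so its probe readings can be set against spot noise. In MSCs the first probe went from 7.32 in Wt to 7.84 in *Sipa1*-/-, a ratio of 0.52. The second read 6.45 on both arrays, a ratio of 0.00. The spot SDs on the Wt and *Sipa1*-/- MSC arrays were 0.05 and 0.08 for the first probe and 0.07 and 0.14 for the second. The probes thus disagreed in MSCs, and the mean of 0.26 comes from the first. On the CD8+ T arrays the first went from 2.71 to 4.29 and the second from 2.77 to 4.29, and the gene ratio was 1.55.

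Type V chains nucleate and thin type I fibrils, and all 3 were higher in *Sipa1*-/- MSCs. *Col5a1* read 5.64 and 7.22 in Wt and *Sipa1*-/- MSCs and 0.40 and 1.56 in the CD8+ T arrays. *Col5a2* read 0.75 and 3.08 on the former and -4.13 and -2.95 on the latter. The *Col5a3* probe that passed on all 4 arrays read 4.70 and 6.49 in MSCs and -0.25 and 1.01 in CD8+ T cells. For each chain the *Sipa1*-/- array was the higher of its sort, by 2.99-fold, 5.05-fold and 3.67-fold in MSCs and by 2.22-fold, 2.27-fold and 2.40-fold in CD8+ T cells. The MSC fold of *Col5a3* is the mean over 2 probes, whereas its CD8+ T fold rests on 1. The probe read above had an MSC log2 ratio of 1.79. The CD8+ T differences of *Col5a2* and *Col5a3* did not stay past 2-fold in every setting. *Col5a2* had a log2 ratio of 0.44 with normexp, and *Col5a3* 0.80 with flags asked of 1 array or without flags, where its other probe adds 0.33. *Col3a1* and *Col5a2* lie next to each other on chromosome 1 with no other gene with a RefSeq mRNA between them, yet their MSC ratios were 0.38 and 2.34.

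The remaining fibrillar chains were mixed. *Col2a1*, the main chain of cartilage fibrils, went from 2.77 in Wt to 4.35 in *Sipa1*-/- MSCs, or 2.99-fold. Its CD8+ T levels were -2.45 and -0.73, or 3.30-fold. *Col11a1*, which joins type II fibrils, had a ratio of 0.57 in MSCs on 1 probe and passed on neither CD8+ T array. *Col11a2* was at -4.43 in Wt and -4.89 in *Sipa1*-/- MSCs, a ratio of -0.46, and had 0.20 in CD8+ T cells, less than its software error of 0.36. *Col27a1*, a fibrillar chain of growing cartilage, had -0.20 in MSCs, which turned to 0.00 on the scaling of the authors' series matrix, and 0.76 in CD8+ T cells. *Col24a1* had a different probe passing on each MSC array and so no ratio by the rule. The first probe read -2.21 in Wt and 0.07 in *Sipa1*-/- MSCs, both well above background, the latter left out by another flag. The second read -3.97 in *Sipa1*-/- MSCs and was not well above background in Wt, a difference of at least 3.72-fold.

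Type IV chains form the sheets of basement membranes. *Col4a1* read 2.81 in Wt and 3.74 in *Sipa1*-/- MSCs, and -0.60 and -0.43 in CD8+ T cells. *Col4a2*, its partner in the common type IV helix, read 2.43 and 3.29 in MSCs and -0.88 and -0.63 in CD8+ T cells. Both chains were higher in *Sipa1*-/- MSCs by just under 2-fold, with ratios of 0.93 and 0.86 that were 1.13 for *Col4a1* and 1.06 for *Col4a2* on the series matrix scaling, and nearly level between the CD8+ T arrays, with 0.18 and 0.25. In this the class differed from type I, whose genotype ratio was the larger of the 2 cell types in CD8+ T cells, but a difference between ratios was not tested. *Col4a4* and *Col4a5*, chains of the kidney, lung and eye type, had ratios of 1.62 and 1.35 in MSCs, but 0.53 for *Col4a4* and 0.78 for *Col4a5* with normexp. The *Col4a5* probes gave 0.89 and 1.81. *Col4a3* and *Col4a6* passed on the *Sipa1*-/- MSC array alone, at -4.91 and -5.49, which bounds the differences at no less than 1.93-fold and 1.29-fold. None of these last 4 chains was well above background on a CD8+ T array.

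Short-chain network collagens followed. *Col8a1*, a chain of endothelial and corneal membranes, read 2.56 in Wt MSCs, 5.40 in *Sipa1*-/- MSCs, -2.67 in Wt CD8+ T cells and -0.02 in *Sipa1*-/- CD8+ T cells. *Col8a2*, its partner chain, read -1.36, 1.90, -4.71 and -3.41 in that order. The *Sipa1*-/- array was the higher for both chains in either sort. The ratios of *Col8a1* were 2.83 and 2.65, MSCs first, and those of *Col8a2* 3.26 and 1.30. With normexp the CD8+ T ratios were 1.89 for *Col8a1* and 0.48 for *Col8a2*.

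Among the beaded filament chains of type VI, *Col6a5* had the highest ratio of any collagen in MSCs. One of its probes read 0.30 in Wt MSCs, 4.73 in *Sipa1*-/- MSCs, -5.21 in Wt CD8+ T cells and -1.52 in *Sipa1*-/- CD8+ T cells. The other read -2.04, 2.60, -6.52 and -3.85 in that order and was not well above background in Wt CD8+ T cells. Both probes placed *Sipa1*-/- far above Wt, with MSC ratios of 4.43 and 4.63 and a mean of 4.53, or 23.1-fold. In CD8+ T cells the probe measured on both arrays gave 3.69, or 12.9-fold, but its Wt reading was near background. The *Col6a5* ratio was 3.18 with flags asked of 1 array and 1.49 with normexp.

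The 3 classical type VI chains wind into 1 helix that surrounds many cells with microfibrils. *Col6a2* read 3.54 and 5.97 in MSCs and -1.53 and 0.55 in CD8+ T cells, ratios of 2.44 and 2.08. *Col6a3* had 1.74 and 1.09, the latter from probes at 0.73 and 1.46. The CD8+ T ratio of *Col6a3* was 0.95 after a median shift and 0.79 with normexp. *Col6a1* is not counted in MSCs because the background around its spot was marked non-uniform on both arrays, although the spot was well above background. Read without that flag it went from 5.96 to 7.81, a difference of 1.85, beside 1.10 and 3.06 on the CD8+ T arrays, a counted ratio of 1.95. *Col6a4* had the lowest ratio of the members measured on both MSC arrays, at -1.09 in Wt and -1.79 in *Sipa1*-/-, a ratio of -0.70, and was measured in Wt CD8+ T cells alone, at -4.93, at least 1.47-fold above *Sipa1*-/-. *Col6a6* had a ratio of 1.70 in MSCs, and 0.65 with normexp. *Col6a6*, *Col6a5* and *Col6a4* lie side by side on chromosome 9 in that order, with MSC ratios of 1.70, 4.53 and -0.70.

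FACIT collagens attach to the surface of fibrils. *Col12a1* and *Col14a1*, which bridge type I fibrils in dense tissue, were both higher in *Sipa1*-/- cells of either sort. A *Col12a1* probe read 0.67 and 2.72 on the MSC arrays and -3.73 and -2.36 on the CD8+ T arrays. *Col14a1* read 1.04 and 2.83 on the former and -3.75 and -2.31 on the latter. The gene ratios were 2.10 and 1.79 for MSCs and 1.37 and 1.43 for CD8+ T cells. *Col16a1* had 1.74 and 1.86, and the probe that passed on all 4 arrays read 4.72, 6.67, -0.34 and 1.52 in Wt MSCs, *Sipa1*-/- MSCs, Wt CD8+ T cells and *Sipa1*-/- CD8+ T cells. With normexp the CD8+ T ratios were 0.70 for *Col12a1*, 0.69 for *Col14a1* and 1.62 for *Col16a1*, so that only the last was past 2-fold in both sorts in that setting. *Col20a1* went from -4.16 to -2.90 in MSCs, a ratio of 1.26, but stood at -2.15 and -2.29 in CD8+ T cells, a ratio of -0.13 that came to 0.00 on the series matrix scaling. *Col9a2*, part of the cartilage type IX helix, had 0.34 and 0.44 in the same order. *Col22a1*, a chain of tissue junctions, had 0.07 and 0.54, and its MSC probes had opposite signs, -0.16 and 0.31. The MSC sign of *Col22a1* turned with the brightest probe, and also after a median shift or quantile normalization.

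The other FACIT members were measured in part. *Col9a3* had 0.00 between the CD8+ T arrays, negative after a median shift or quantile normalization, and passed on the *Sipa1*-/- array alone in MSCs, at -5.06. *Col9a1* passed only in *Sipa1*-/- CD8+ T cells, at -5.08. *Col19a1* passed only in Wt MSCs, at -3.61, against a reading of -7.82 below background in *Sipa1*-/- MSCs. On 1 of its 2 probes *Col19a1* was at least 4.53-fold lower there, the opposite direction to most members. The other *Col19a1* probe was not well above background on any array, at -8.10 in Wt and -8.03 in *Sipa1*-/- MSCs.

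Membrane-spanning and other collagens completed the family. *Col23a1*, a transmembrane collagen, went from -3.90 to -1.88 in MSCs, a ratio of 2.02 that was 1.04 with normexp, but had 0.30 in CD8+ T cells. *Col13a1*, found at sites of cell adhesion, passed in *Sipa1*-/- MSCs alone, on 1 of 2 probes, at least 4.35-fold above Wt. The other *Col13a1* probe read -6.02 in Wt and -6.36 in *Sipa1*-/- MSCs, not well above background on either. *Col17a1*, the hemidesmosome collagen of epithelia, had 0.06 and 0.33, and the former turned negative after a median shift or quantile normalization. Its other probe passed in *Sipa1*-/- MSCs alone, at -4.76, at least 2.15-fold above Wt, and the MSC ratio of *Col17a1* was 1.35 with flags asked of 1 array. *Col15a1* and *Col18a1*, the multiplexins of basement membrane zones, had 1.77 and 1.24 in MSCs, and *Col15a1* had 1.06 with normexp. In CD8+ T cells *Col18a1* had -0.10, positive on the series matrix scaling, and *Col15a1* passed on the Wt array alone, at least 1.55-fold above *Sipa1*-/-. *Col7a1*, which anchors epidermis to dermis, read 0.82 and 1.95 on the MSC arrays and -1.24 and -0.99 on the others, ratios of 1.13 and 0.25. After a median shift *Col7a1* had 0.99 in MSCs. *Col28a1* had 0.76 in MSCs from probes at 0.25 and 1.28. *Col26a1* had 0.15 in CD8+ T cells, and its other probe read -3.47 in Wt and -3.68 in *Sipa1*-/- MSCs, well above background on both but left out in Wt by another flag.

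By class in MSCs, at least 2-fold higher levels were found for 4 of 10 measured fibrillar chains, 2 of 4 type IV chains, 2 of 2 type VIII chains, 4 of 5 type VI chains, 4 of 6 FACITs, 1 of 2 transmembrane chains and 2 of 2 multiplexins. *Col7a1*, outside these classes, was also past that line, and *Col28a1* was not. Of all genes, 19.3% were past it, and 11.9% with normexp. With normexp *Col4a4*, *Col4a5*, *Col6a6*, *Col20a1* and *Col7a1* fell below that line, which left 0 type IV chains past it. The class medians were 0.48 for fibrillar, 1.14 for type IV, 3.05 for type VIII, 1.74 for type VI, 1.50 for FACIT, 1.04 for transmembrane and 1.50 for multiplexin chains. Chains that share a helix gave close ratios in some types and not in others. The chains of type I were 0.08 apart among MSCs, 0.02 apart among CD8+ T cells, and those of the common type IV helix 0.07 apart in both. The type VIII chains were 0.43 apart in MSCs and 1.35 apart in CD8+ T cells, and the 3 type V chains spanned 0.76 and 0.11. The type XI chains were 1.03 apart in MSCs. Type VI spanned 0.69 over 2 chains in MSCs and 0.99 over 3 in CD8+ T cells.

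In CD8+ T cells, 16 of 29 measured members were at least 2-fold higher on the *Sipa1*-/- array and 0 at least 2-fold lower, beside 2.66% and 1.40% of all 14339 genes. The median of the members was 1.15 and that of all genes -0.02. With normexp the member median was 0.48 and 11 of 29 were at least 2-fold higher, beside 0.753% of all genes. Without normexp, the 8 members that lay above the median signal had a median of 1.54. Higher levels past 2-fold were found for 7 of 9 fibrillar, 2 of 2 type VIII, 4 of 4 type VI and 3 of 7 FACIT chains. They were found for 0 of 2 type IV, 0 of 2 transmembrane and 0 of 1 multiplexin chains. Class medians were 1.26 for fibrillar, 1.97 for type VIII, 2.02 for type VI, 0.54 for FACIT, 0.21 for type IV and 0.32 for transmembrane chains.

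The median of all genes depended on the scaling. A median shift moved it from 0.04 to -0.10 for MSCs, and for CD8+ T cells from -0.02 to -0.17, and the series matrix scaling moved it to 0.25 and 0.11. Among all genes past 2-fold in MSCs, 63.1% were higher, 54.1% after a median shift and 74.1% on the series matrix scaling. For CD8+ T cells this share was 65.5%, against 52.5% after a median shift, 76.3% on the series matrix scaling and 52.4% with normexp. Among genes above the median signal it was 59.2% for MSCs and 48.9% for CD8+ T cells.

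Both genotype ratios could be set side by side for 26 members. Of these, 12 were at least 2-fold higher in both sorts, 4 in MSCs alone and 3 in CD8+ T cells alone, beside 2.26%, 13.7% and 0.348% of all 13781 genes with both ratios. The last 3 were *Col1a1*, *Col1a2* and *Col3a1*. The 4 were *Col20a1*, *Col23a1*, *Col18a1* and *Col7a1*. With normexp, 7 of the 12 remained, and CD8+ T ratios fell to 0.44 for *Col5a2*, 0.48 for *Col8a2*, 0.79 for *Col6a3*, 0.70 for *Col12a1* and 0.69 for *Col14a1*. The offset of 50 was above the Wt CD8+ T signals of *Col5a2* and *Col8a2*, 23.6 and 15.8. Ratios of readings this dim shrink with the offset alone. The MSC ratio of *Col20a1* fell to 0.54 with normexp, and that of *Col7a1* fell below 2-fold with normexp and after a median shift. The MSC ratio was the larger for 16 and the CD8+ T ratio for 10. Some of these genes have more probes in 1 sort than in the other, and for *Col16a1*, counted among the 10, the probe that passed on all 4 arrays had the larger ratio in MSCs, 1.94 against 1.86. The widest gap toward MSCs was that of *Col8a2*, 1.97, and toward CD8+ T cells that of *Col3a1*, at -1.36 as MSC minus CD8+ T ratio. None of these gaps was tested.

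Markers of other cells moved with the genotype on both pairs of arrays. The shares of all genes at least 2-fold lower were 11.3% in MSCs and 1.40% in CD8+ T cells. In MSCs, all 11 measured B-lineage markers of a list of 12 had a *Sipa1*-/- level lower by 2-fold or more, with a median of -4.22. Their summed linear signal, in units of the 75th percentile, was 684 in Wt MSCs, 42.0 in *Sipa1*-/- MSCs, 29.6 in Wt CD8+ T cells and 21.1 in *Sipa1*-/- CD8+ T cells. The brightest readings of the list in Wt MSCs were those of *Vpreb1* and *Vpreb3*, surrogate light chain genes of early B cells, at 7.57 and 7.55, which does not rank their transcripts. In Wt and *Sipa1*-/- MSCs, *Cd79b*, a B cell receptor chain, read 6.65 and 2.49. Between the CD8+ T arrays 3 of 10 measured B-lineage markers were lower by at least 2-fold. *Vpreb1* went from 1.96 to -0.08, *Vpreb3* from 2.25 to 0.43 and *Igll1*, another surrogate light chain gene, from -1.35 to -3.56. Leukocyte markers were lower in MSCs too, 5 of 6 by at least 2-fold with a median of -1.69. The part of these cells in the collagen ratios was not tested.

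Most fibroblast markers other than collagens were higher on both *Sipa1*-/- arrays. The shares of all genes at least 2-fold higher were 19.3% in MSCs and 2.66% in CD8+ T cells. In MSCs, 13 of 17 measured genes of a list of 19 were at least 2-fold higher, with a median of 1.62 and a range from 0.69 for *Vim* to 2.54 for *Postn*. Of the 33 collagens, 10 had a ratio below that range, 20 within it and 3 above it. The 10 include *Col1a1*, *Col1a2* and *Col3a1*, and the 3 above it are *Col8a1*, *Col8a2* and *Col6a5*. In CD8+ T cells, 14 of 19 list genes were at least 2-fold higher and 5 within 2-fold, among them *Vim* at -0.09 and *Pi16* at -0.08, with a median of 1.48, and the summed signal went from 384 to 475. The brightest reading there came from *Thy1*, at 7.37 and 7.46, which T cells also express. *Mmp2*, a matrix protease, had the highest ratio of the list, 2.23, and *Dcn*, a collagen-binding proteoglycan, went from 2.63 to 4.31. The ratio of *Dcn* was 0.86 between the MSC arrays and 1.68 between the CD8+ T arrays. That of *Sparc*, a collagen-binding matrix protein, was 0.80 and 1.43, so a larger ratio in CD8+ T cells was not particular to the type I and III chains. *Pdgfra* read -1.88 and -0.44 in CD8+ T cells and passed on both arrays there. The part of stromal RNA in the CD8+ T collagen ratios was not tested.

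CD8 T markers hardly differed between the CD8+ T arrays, with 0 of 9 past 2-fold and a median of 0.09. In MSCs, 4 of 8 measured were at least 2-fold higher and 2 lower, beside 19.3% and 11.3% of all genes, with a median of 0.90. Among the 4 was *Thy1*, with a ratio of 1.14, which is also on the fibroblast list. The further marker lists had these medians, MSCs first: endothelial 0.33 and -0.03, pericyte and smooth muscle 0.62 and -0.09, keratinocyte 0.75 and 0.02, Schwann 0.95 and 0.01. Skeletal muscle genes had 0.60 and -0.22, chondrocyte genes 0.78 and 0.11, osteoblast genes 1.67 and 0.18, adipocyte genes 0.68 and 0.53. Granulocyte genes had 0.18 and -0.12 and macrophage genes 0.85 and 0.11, but single genes of these lists moved further. The granulocyte genes *S100a8* and *S100a9* went from 6.99 to 5.52 and from 8.38 to 7.33 between the CD8+ T arrays, where the summed signal of the list went from 569 to 308. *Cd14*, a macrophage marker, went from 3.23 to 0.80 there, while the other 4 of the 5 macrophage genes were higher, by up to 0.46. The granulocyte enzymes *Mpo* and *Elane* had ratios of 2.13 and 1.57 in MSCs. The part of these cells in the collagen ratios was not tested either. Of the chondrocyte list 3 of 7 genes were measured in each sort, and of the osteoblast list 3 of 6. The osteoblast genes in MSCs were *Runx2* at 1.67, *Spp1* at 2.26 and *Alpl* at -4.07, so their median hides opposite signs, and *Alpl* had -1.40 in CD8+ T cells. The adipocyte medians rest on 2 of 5 genes, *Fabp4* at 1.42 and *Lep* at -0.06 in MSCs. The leukocyte list had -0.06 and the B-lineage list -0.17 in CD8+ T cells.

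**Figure D2:**
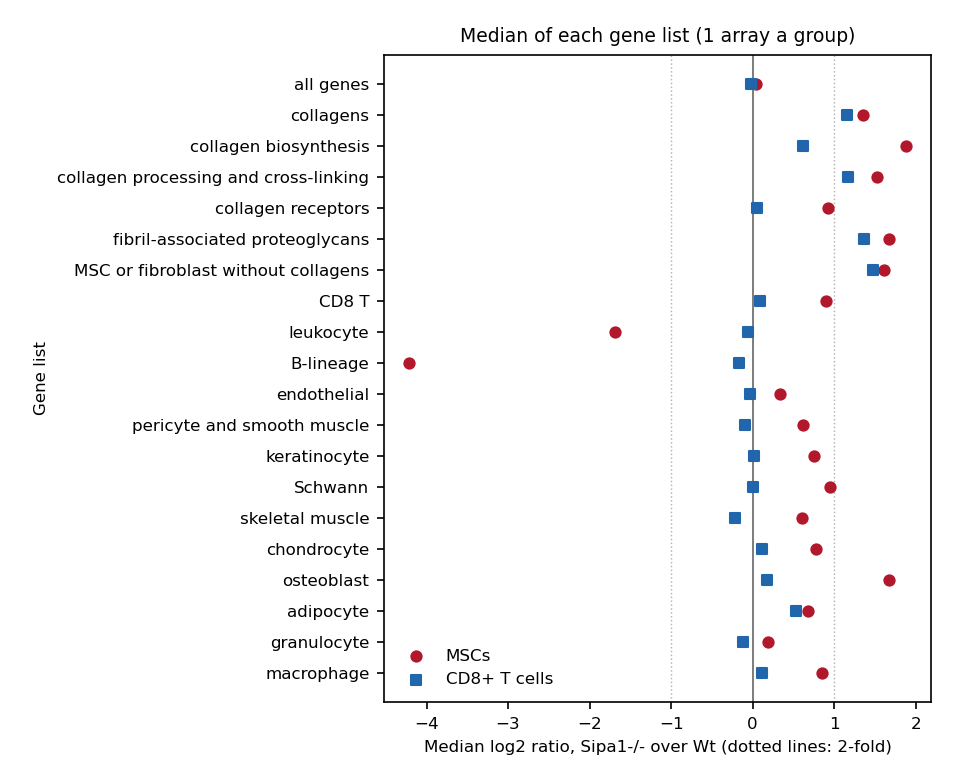
Median log2 ratio of *Sipa1*-/- over Wt for the genes of each list measured on both arrays, in MSCs (circles) and CD8+ T cells (squares), with 1 array per group and no error. Collagens, collagen-related lists and fibroblast markers lie to the right in MSCs. So do most other marker lists, with osteoblast genes at 1.67 and Schwann genes at 0.95 against 1.35 for the collagens. The B-lineage list lies at -4.22 for MSCs against -0.17 for CD8+ T cells.

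Genes that make, process and bind collagen were read with the chains, and the genes named from these lists and the marker lists were chosen after the values were seen. Among all genes in MSCs, 19.3% were at least 2-fold higher and 11.3% lower, which is the base for the counts that follow. Of 20 measured biosynthesis genes, 18 were at least 2-fold higher in *Sipa1*-/- MSCs and 0 lower, with a median of 1.89. *Plod2*, a lysyl hydroxylase that prepares cross-links, went from -0.37 to 2.08, and *Serpinh1*, the collagen chaperone HSP47, from 4.62 to 6.26. Of 11 measured genes for processing and cross-linking, 11 were at least 2-fold higher, with a median of 1.52. *Lox*, the lysyl oxidase that starts cross-linking, had the highest ratio of that list at 2.65. Small proteoglycans that coat fibrils had 8 of 9 at least 2-fold higher and a median of 1.67, with *Aspn* at 2.36. This list shares *Dcn* and *Lum*, and the processing list *Loxl1*, with the fibroblast markers. The biosynthesis median of 1.89 in MSCs stood beside 1.35 for all collagens, 0.48 for the fibrillar chains and 3.05 for the type VIII chains. These gaps were not tested.

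Collagen receptors went both ways in MSCs, 6 of 12 at least 2-fold higher and 2 lower, with a median of 0.92. The shares of all genes were 19.3% and 11.3%. *Itga11*, the integrin chain of fibroblasts that binds type I collagen, went from 3.21 to 5.67. *Adgrg1*, an adhesion receptor for type III collagen, went from 3.15 to 0.06. The collagen-related lists had lower medians in CD8+ T cells, where only 2.66% of all genes were at least 2-fold higher. Biosynthesis genes had 6 of 20 at least 2-fold higher there and a median of 0.62. Processing genes had 5 of 8 and 1.17, proteoglycans 4 of 6 and 1.37, and receptors 3 of 11 and 0.06. *Ppib*, a folding enzyme of the endoplasmic reticulum in many cells, was at 4.70 and 4.64 there, and *Serpinh1* at -0.07 and 1.02.

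Comparing MSCs with CD8+ T cells shows how far each collagen separated the sorts. In Wt tumors 22 of 28 measured members were at least 2-fold higher in MSCs and 2 at least 2-fold lower, beside 17.3% and 12.8% of all 14225 genes. In *Sipa1*-/- tumors these counts were 20 of 27 and 0, beside 21.9% and 18.7% of 14300 genes. The member medians were 4.16 in both genotypes, and those of all genes -0.06 and -0.18. With normexp the member medians were 3.02 in Wt and 3.60 in *Sipa1*-/-, and without flags, over 44 members, 2.95 and 3.17. A median shift moved the medians of all genes to -0.29 and -0.41 and the series matrix scaling to 0.39 and 0.34. Of all genes past 2-fold, 57.4% in Wt and 54.0% in *Sipa1*-/- were higher in MSCs, with 45.5% and 42.9% after a median shift and 76.6% and 76.3% on the series matrix scaling. These comparisons share their arrays with the genotype comparisons, so no value of them is independent of the ratios above.

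The distance between the sorts narrowed for some chains and widened for others. *Col1a1*, *Col1a2* and *Col3a1* had 4.15, 4.33 and 4.39 in Wt and 2.86, 3.14 and 3.02 in *Sipa1*-/-. The brightest probe of *Col1a1* gave 4.61 and 3.55. *Col27a1* narrowed from 4.17 to 3.21. *Col5a2* had 4.88 and 6.04, *Col8a2* 3.35 and 5.31, and *Col18a1* 2.92 and 4.26. With normexp the sizes fell while the directions held, to 2.58 and 2.15 for *Col27a1*, 3.13 and 4.97 for *Col5a2*, 1.39 and 3.78 for *Col8a2* and 2.70 and 4.03 for *Col18a1*. *Col4a1* and *Col4a2* had 3.41 and 3.31 in Wt and 4.16 and 3.92 in *Sipa1*-/-. *Col6a5* had 5.51 in Wt and 6.35 in *Sipa1*-/-, but 2.95 and 5.19 with normexp, and its Wt CD8+ T reading was near background. *Col5a1* had 5.24 in Wt and 5.67 in *Sipa1*-/-, and *Col8a1* 5.23 and 5.42. With normexp the Wt ratios were 5.09 for *Col5a1* and 4.26 for *Col8a1*.

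**Figure D3:**
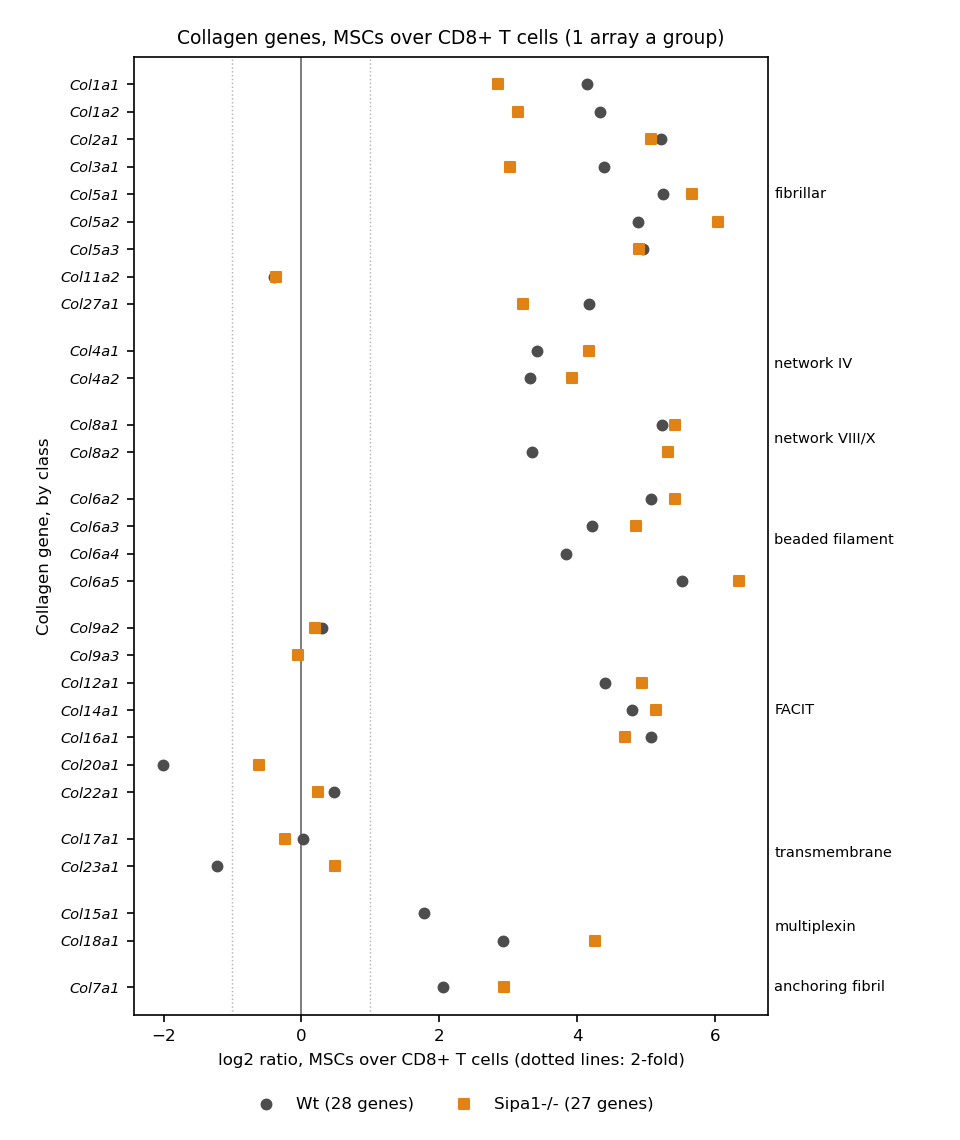
Log2 ratio of MSCs over CD8+ T cells for each collagen gene measured on both arrays, in Wt (circles, 28 genes) and *Sipa1*-/- (squares, 27 genes) tumors, by class, with 1 array per group and no error. *Col6a5* lies at 5.51 and 6.35, *Col1a2* moves from 4.33 to 3.14, and *Col20a1* lies below 0 in both.

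A few members did not separate the sorts or were higher in CD8+ T cells. *Col20a1* in Wt tumors was at -4.16 on the MSC array against -2.15 on the CD8+ T array, 4.01-fold higher in the latter, and had a ratio of -0.61 in *Sipa1*-/-. With normexp the Wt ratio of *Col20a1* was -1.03. *Col23a1* had -1.23 in Wt and 0.48 in *Sipa1*-/-, but its probes were far apart, at -2.39 and -0.08 in Wt and at -0.79 and 1.75 in *Sipa1*-/-. With normexp the Wt ratio of *Col23a1* was -0.76, and with flags asked of 1 array the *Sipa1*-/- ratio was 1.13. *Col11a2* had -0.40 and -0.37, with probes of opposite sign in Wt and a sign that turned on the scaling of the series matrix, while the brightest *Col11a2* probe gave -1.01 in Wt. *Col9a2*, *Col17a1* and a *Col22a1* probe lay between -0.24 and 0.47 in both genotypes, with signs that turned in at least 1 genotype under other settings. The other *Col22a1* probe passed on both MSC arrays, at -4.10 in Wt and -4.26 in *Sipa1*-/-, and was not well above background on either CD8+ T array. With flags asked of 1 array, *Col22a1* had 2.04 in Wt and 1.88 in *Sipa1*-/-, and *Col17a1* 1.21 in *Sipa1*-/-, so the rule for probes decides whether they separated the sorts.

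Some members were measured in 1 sort only. There were 10 members that passed on an MSC array and on no CD8+ T array, against 2, *Col6a1* and *Col9a1*, in the other direction. Among all 22911 genes these states held 1788 and 413, or 7.80% and 1.80%, so the side of MSCs was the more frequent there too. *Col6a1* was bright in MSCs but marked for its background. In *Sipa1*-/- tumors *Col15a1* was at least 14.8-fold, *Col6a4* at least 13.0-fold, *Col6a6* at least 8.44-fold, *Col4a5* at least 7.40-fold and *Col4a4* at least 5.17-fold above CD8+ T cells. In Wt tumors *Col11a1* was at least 11.7-fold, *Col24a1* at least 10.2-fold and *Col19a1* at least 3.87-fold above. The bounds of *Col6a4*, *Col11a1*, *Col24a1* and *Col19a1* each rest on 1 of 2 probes, the other not being well above background on that MSC array. All bounds in both genotypes set the bright reading against the lowest signal well above background on the dim array.

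Promoter sequences were taken from RefSeq on GRCm38.p6 for 35 of the 44 members, in 38 windows, and the 250 bases before each start were searched on both strands. The TATA box letters TATAAA stood in 5 of the 38 windows, beside 12.4% of all 32851 windows, and the CCAAT box letters CCAAT in 13, beside 33.8%. The GC box letters GGGCGG stood in 22, beside 32.7%, the AP-1 letters TGANTCA in 1, beside 6.75%, and the E-box letters CAGGTG in 4, beside 17.2%. *Col4a1* and *Col4a2*, which gave near equal ratios, are transcribed away from each other on chromosome 8, and their 300-base windows share 78 bases. A match describes letters and marks no known site.

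The upstream windows of *Col1a2* and *Col3a1* are shown because these chains had small ratios in MSCs and large ones in CD8+ T cells, and those of *Col6a5*, *Col8a1* and *Col8a2* because these had the highest ratios in MSCs. Capitals mark matches to any of the 5 motifs, in *Col8a1* a GC box match overlaps the E-box match, and in *Col8a2* GC box matches overlap. *Col1a2* (chr6:4505368-4505617, plus strand) holds 1 CCAAT and 2 GC box matches. *Col3a1* (chr1:45311288-45311537, plus strand) holds 1 TATA box match. Its bases are 35.2% G or C, against 62.0% in *Col1a2*. *Col6a5* (chr9:105960644-105960893, minus strand) holds 1 GC box and 1 E-box match. *Col8a1* (chr16:57754738-57754987, minus strand) holds 4 GC box matches and 1 E-box match, and *Col8a2* (chr4:126286544-126286793, plus strand) 4 GC box matches.
Col1a2: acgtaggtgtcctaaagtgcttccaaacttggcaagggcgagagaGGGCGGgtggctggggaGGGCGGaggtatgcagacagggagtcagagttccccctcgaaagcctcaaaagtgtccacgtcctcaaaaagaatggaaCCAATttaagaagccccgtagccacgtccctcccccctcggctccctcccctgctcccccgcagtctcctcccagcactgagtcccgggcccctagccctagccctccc
Col3a1: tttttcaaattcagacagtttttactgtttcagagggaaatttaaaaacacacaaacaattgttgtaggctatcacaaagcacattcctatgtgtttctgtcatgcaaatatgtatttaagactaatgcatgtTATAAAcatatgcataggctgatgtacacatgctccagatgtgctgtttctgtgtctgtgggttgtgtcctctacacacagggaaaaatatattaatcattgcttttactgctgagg
Col6a5: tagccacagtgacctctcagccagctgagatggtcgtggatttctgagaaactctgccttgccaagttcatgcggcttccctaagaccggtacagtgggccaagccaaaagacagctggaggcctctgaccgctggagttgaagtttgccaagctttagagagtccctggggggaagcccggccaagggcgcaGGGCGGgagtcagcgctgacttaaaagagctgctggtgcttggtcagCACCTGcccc
Col8a1: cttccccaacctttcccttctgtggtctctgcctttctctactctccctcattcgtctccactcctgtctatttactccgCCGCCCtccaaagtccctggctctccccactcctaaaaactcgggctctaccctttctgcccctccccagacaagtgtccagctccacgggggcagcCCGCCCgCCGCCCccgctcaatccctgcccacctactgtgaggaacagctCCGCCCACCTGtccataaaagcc
Col8a2: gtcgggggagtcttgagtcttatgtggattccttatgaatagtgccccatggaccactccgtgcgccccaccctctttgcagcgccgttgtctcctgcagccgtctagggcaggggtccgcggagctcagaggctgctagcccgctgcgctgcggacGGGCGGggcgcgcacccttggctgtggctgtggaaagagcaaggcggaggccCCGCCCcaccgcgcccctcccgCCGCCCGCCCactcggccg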

How the data were processed

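The intensity values were made by the authors with Agilent Feature Extraction, version 9.1 per the labels and 12.0.3.1 per the file headers, from 1-colour scans, with background subtracted and no scaling between arrays. The quality flags, of unit other, are those deposited with each spot. All 4 arrays lay on 1 slide and came from 1 scan. The series matrix holds the same signals times 1 constant per array, with column medians of 41.0, 52.0, 25.5 and 30.9 for Wt MSCs, *Sipa1*-/- MSCs, Wt CD8+ T cells and *Sipa1*-/- CD8+ T cells, and how the constants were chosen is unstated. Python 3.11.15 with numpy 2.4.6, pandas 2.3.3 and scipy 1.17.1 was used, and R 4.3.3 with limma 3.58.1 for normexp. Spots that were not controls, well above background, unsaturated and uniform on both arrays of a pair were kept. Their log2 intensity minus the 75th percentile was averaged over spots, probes and genes, and a log2 ratio of 1 was the threshold. Alternatives were weaker flags, saturated spots kept, a median shift, quantile normalization, the series matrix values, normexp with an offset of 50, the brightest probe, genes above the median signal and other thresholds. The files have no mean signal column, so normexp used the median spot signal. Genes are named where they are members, defining markers, among the brightest readings or most changed of a list, or examples of small or opposite ratios. Members and lists were chosen with earlier results of these data known. Promoter windows were missing for *Col1a1*, *Col22a1*, *Col2a1*, *Col4a3*, *Col26a1*, *Col14a1*, *Col9a3*, *Col12a1* and *Col5a2*.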

Additional observations from a re-analysis of the deposited data

Results flagged for a closer look

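The sign of the *Sipa1*-/- over Wt ratio differed between MSCs and CD8+ T cells for 4 collagens, and none of these differences was tested. For each of them the smaller ratio was no larger than its software error, which was 0.36 for *Col11a2* in CD8+ T cells, 0.20 for *Col27a1* in MSCs, and 0.21 for *Col20a1* and 0.20 for *Col18a1* in CD8+ T cells. *Col11a2* had -0.46 in MSCs and 0.20 in CD8+ T cells, with no sign change under the alternatives. *Col27a1* had -0.20 and 0.76, and the former came to 0.00 on the series matrix scaling. *Col20a1* had 1.26 and -0.13, and the latter came to 0.00 on the series matrix scaling. *Col18a1* had 1.24 and -0.10, and the latter came to 0.03 on the same scaling.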

How the results depend on the processing

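No median of the members changed sign in any alternative. With flags asked of 1 array, 1 member was at least 2-fold lower in the MSC, the CD8+ T and the *Sipa1*-/- sort comparison, 36 of 41 then measured were higher in the last beside 28.5% of all genes, and the sort medians were 3.83 in Wt and 3.92 in *Sipa1*-/-. Without flags, 1 member was lower in MSCs, the CD8+ T median was 0.53, 35 of 44 were higher and 1 lower in the Wt sorts with a median of 2.95, and 36 of 44 higher in the *Sipa1*-/- sorts with a median of 3.17, beside 18.3% and 21.9% of all genes higher. A median shift gave sort medians of 3.93 and 3.94. The series matrix gave 1.56 in MSCs, 4.61 with 1 member lower in the Wt sorts, and 4.69 in the *Sipa1*-/- sorts. Normexp gave 0.86 in MSCs, 0.48 in CD8+ T cells, 3.02 with 1 lower in the Wt sorts and 3.60 in the *Sipa1*-/- sorts. The brightest probe gave 1.578 in MSCs. Keeping only the brighter genes, above the median signal, gave medians of 1.66 in MSCs, 1.54 in CD8+ T cells and 4.86 in the *Sipa1*-/- sorts. In that setting 7 of 8 members were higher in CD8+ T cells, beside 0.935% of such genes. In the Wt sorts 14 of 14 were higher and 0 lower, beside 12.1% of such genes higher. At 1.5-fold, 1 member was lower in MSCs and 1 in the *Sipa1*-/- sorts, beside 22.3% and 33.3% of all genes. At 3-fold, 7 of 29 were higher in CD8+ T cells, beside 0.746% of all genes, and 1 lower in the Wt sorts, beside 6.73%. Among the ratios of single members over all settings, 234 moved and 761 stayed. With 1 array per condition, no paired analysis could be made. The ratios carry the sorting, the mice and the array together, many CD8+ T readings were close to background, and how many mice stand behind each array is not stated.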
